A study of Mus musculus with 19 samples.

Results

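The genes described here carry glucose into the cell and break it down to pyruvate and lactate. The 10 gene names are the glucose transporters Slc2a1 and Slc2a3, the hexokinases Hk1 and Hk2, the phosphofructokinases Pfkl and Pfkp, the aldolase Aldoa, the pyruvate kinase Pkm and the lactate dehydrogenase subunits Ldha and Ldhb. Every row of the count table with one of these names was taken, which gave 11 rows of 53379 because the name Aldoa stands on 2 rows. Of the 11 rows, 9 reached the level per unit length that was set for testing. Pfkp and the second Aldoa row did not.

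Glucose enters a cell through transporters of the GLUT family, hexokinase traps it as glucose 6-phosphate, and phosphofructokinase commits it to glycolysis. Aldolase then splits the sugar, pyruvate kinase makes pyruvate at the last step, and lactate dehydrogenase converts pyruvate and lactate into each other. Cleavage-stage mouse embryos live mainly on pyruvate and take up more glucose as the blastocyst forms.

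The 19 libraries hold polyA RNA of 1 mouse embryo each, taken at 96 hours after insemination. The parents carried 1 deleted allele of either Alyref or Gabpb1, fertilisation was done in vitro, and wild-type (WT) parents gave the control embryos. All embryos carry the strain label B6D2F1 and grew in KSOM, an embryo culture medium, at 37 degrees C under 5% CO2. Alyref encodes an adaptor for mRNA export, and the product of Gabpb1 belongs to GABP, a transcription factor. Of the 19 embryos 8 came from the Alyref cross: 2 knockout (KO) and 3 non-KO morulae, and 3 blastocysts, all non-KO. From the Gabpb1 cross came 3 morulae labelled Gabpb1 KO, 2 other morulae and 3 blastocysts, the last 5 all non-KO. The last 3 blastocysts came from WT parents. A non-KO embryo can be WT or heterozygous. The submitters called an embryo KO from missing reads over the deleted part of the gene in these same libraries. No KO embryo was a blastocyst, so the KO groups were compared with morulae only. Morulae and blastocysts were taken at the same age. In stage comparisons, rose and fell mean higher or lower in blastocysts than in morulae of that age, not change over time. Stage and delayed development cannot be told apart here. Each cross had its own fertilisations, and cross and fertilisation batch cannot be told apart. Every library is 1 embryo, and p-values measure the spread between these embryos.

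Gene counts per embryo ranged from 7.49 to 31.5 M (megacounts) with a median of 13.6 M. CPM (counts per M of library counts) below are scaled to the library, and FPKM are further divided by gene length. In its own cross, Alyref stood at 53.1 ± 7.57 CPM (SD, n = 2) in KO and at 221 ± 65.6 CPM (SD, n = 3) in other morulae. Over the whole gene, the morulae labelled Gabpb1 KO did not have less Gabpb1, at 163 ± 91.2 CPM (SD, n = 3) beside 88.6 ± 7.46 CPM (SD, n = 2). Counts per gene cannot examine the deleted part, so these values do not test the KO label. Summed CPM of 12 trophectoderm markers ran from 586 to 2469 in the non-KO morulae of the Alyref cross, from 3300.4 to 5284 in those of the Gabpb1 cross and from 5615 to 9043 in blastocysts. They ran from 759.8 to 1699 in Alyref KO morulae and from 299 to 3219.95 in morulae labelled Gabpb1 KO. Markers of the inner cell mass and epiblast summed to 475 to 1176 CPM over all embryos and also moved with stage in the Alyref cross. Those of cumulus cells, which surround the oocyte, summed to 3.46 CPM at most, and 0 of 8 could be tested. In bulk RNA of an embryo, fewer cells of a type and less RNA per cell cannot be told apart.

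In the Alyref cross, the hexokinase genes differed in opposite directions between non-KO morulae and blastocysts of the same age. In the blastocysts Hk1 was lower by 2.86 on the log2 scale and Hk2 higher by 2.72, and the transporter gene Slc2a3 was higher by 0.96. These 3 were the genes of the 9 tested that passed an adjusted p of 0.05 there, where 13% of all genes did. Between the same stages of the Gabpb1 cross 0 of the 9 passed, where 0% of all genes did. In the KO comparisons 0 of the 9 passed, where 0.228% (Alyref) and 1.65% (Gabpb1) of all genes did. On the log2(CPM + 1) scale, Ldha varied more between embryos of one group than nearly all genes did. Aldoa was the most abundant of the 10 per unit length and had the smallest fold range over all embryos. Its spread within groups was near that of the median gene.

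Promoter sequences are shown for Hk2 and Hk1, which differed in opposite directions between stages of the Alyref cross. They are also shown for Ldha, which varied most within groups on the log2(CPM + 1) scale. The windows are 250 bases before an annotated RefSeq start on build GRCm38.p6, written 5′ to 3′ on the gene's strand, and none of these 4 holds a base of a GENCODE exon. Capitals mark ACGTG and GCGTG, cores of sites of the hypoxia-inducible factors (HIF), on either strand, and CACGTG, the E-box, which holds ACGTG. The Hk2 window is chr6:82774455-82774704 on the minus strand, directly before the gene.
Hk2: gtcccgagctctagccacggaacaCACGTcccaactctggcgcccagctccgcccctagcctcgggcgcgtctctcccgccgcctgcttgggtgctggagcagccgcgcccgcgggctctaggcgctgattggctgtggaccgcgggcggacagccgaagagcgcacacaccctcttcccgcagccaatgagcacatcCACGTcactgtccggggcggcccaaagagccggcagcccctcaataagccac
The Hk1 window is chr10:62379909-62380158 on the minus strand, directly before the gene.
Hk1: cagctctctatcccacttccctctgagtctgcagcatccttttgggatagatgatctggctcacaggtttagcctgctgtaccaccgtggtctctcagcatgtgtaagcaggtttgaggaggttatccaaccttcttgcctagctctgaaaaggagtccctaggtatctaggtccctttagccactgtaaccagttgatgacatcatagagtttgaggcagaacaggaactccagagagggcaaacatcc
A second Hk1 window, chr10:62340422-62340671, is not printed because 186 of its bases lie in GENCODE exons. It holds GCGTG 3 times, and the printed Hk1 window holds neither core.
The first Ldha window, chr7:46845554-46845803 on the plus strand, and the second, chr7:46846832-46847081, both lie inside the gene's annotated span. As an unbroken stretch, the 50 bases after the first were found in 0 GENCODE transcripts of Ldha. Those after the second were found in 1.
Ldha window 1: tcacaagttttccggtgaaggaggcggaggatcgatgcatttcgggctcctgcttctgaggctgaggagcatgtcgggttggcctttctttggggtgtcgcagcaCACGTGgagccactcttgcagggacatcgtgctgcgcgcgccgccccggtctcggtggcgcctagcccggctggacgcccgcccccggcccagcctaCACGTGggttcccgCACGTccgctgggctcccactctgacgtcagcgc
Ldha window 2: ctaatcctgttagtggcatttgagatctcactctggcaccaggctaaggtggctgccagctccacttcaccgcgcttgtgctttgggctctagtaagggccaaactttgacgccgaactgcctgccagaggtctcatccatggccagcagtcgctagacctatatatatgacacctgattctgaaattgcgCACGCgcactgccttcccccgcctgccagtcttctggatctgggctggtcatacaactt
RefSeq gave 14 such windows for 9 of the 10 genes, and Slc2a3 had none. ACGTG or GCGTG occurred in 11 of the 14, beside 38.6% of 32851 promoter windows of the same length over all genes. Both cores hold the bases CG, and the 14 windows had 49.6 to 69.6% G and C. The windows of all genes were not matched for this content. The 14 are not independent. Aldoa windows chr7:126799255-126799504 and chr7:126799179-126799428 overlap and share 1 ACGTG match, and some windows with a match hold exon bases. CACGTG occurred in 1 of the 14, the first Ldha window, beside 6.02%. CCGGAAG, a core of sites of GABP and other ETS factors, occurred in 0 of the 14, beside 6.91%. A match of letters is a description of the window and shows no binding.

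Per unit length, mean FPKM over the 19 embryos placed Aldoa first at 248, above 97.8% of tested genes. Slc2a3 followed at 39.8 FPKM and Pkm at 34.6 FPKM. Ldha at 20.8 FPKM and Hk2 at 19.8 FPKM came next, then Slc2a1 at 8.69 FPKM. Pfkl was at 2.74 FPKM, Hk1 at 1.76 FPKM, Ldhb at 0.993 FPKM and Pfkp at 0.504 FPKM. The embryos' ranges of neighbours in this order overlapped, except for Aldoa, whose lowest embryo, at 120 FPKM, lay above the highest embryo of Slc2a3, at 68.3 FPKM. The highest CPM was 3.05 times the lowest for Aldoa and 3.71 times for Slc2a3. For Ldha it was 65.2 times, and for Slc2a1 63.1 times.

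**Figure D1:**
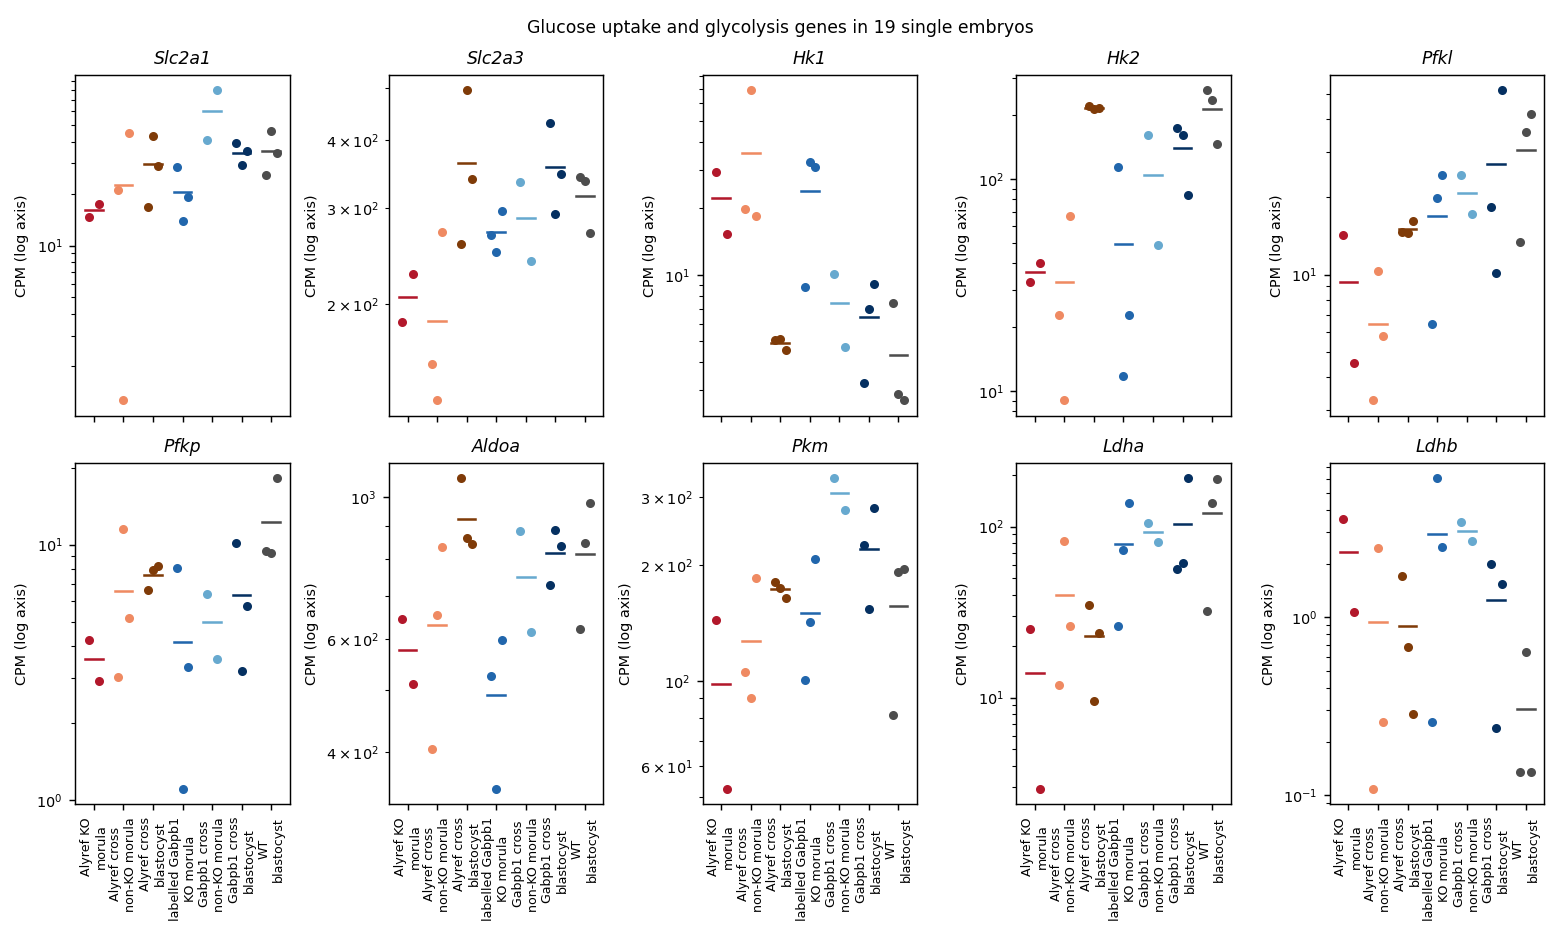
CPM of the 10 genes (log axis) in each of 19 embryos, 1 point per embryo and a bar at the group mean, for 7 groups. Hk2 lies between 215 and 219.6 CPM in the 3 blastocysts of the Alyref cross and between 9.03 and 66.6 CPM in its 3 non-KO morulae, while Hk1 has the opposite order.

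Slc2a3 encodes GLUT3, a transporter of high affinity for glucose, and lies at chr6:122727809-122801640 on the minus strand (build mm10). It was at 155, 133 and 271 CPM in the non-KO morulae of the Alyref cross and at 258, 495 and 339.7 CPM in its blastocysts. Only the third morula and the first blastocyst overlapped. Slc2a3 rose by 0.96 (SE 0.28, edgeR adjusted p = 0.0344). Non-KO morulae of the Gabpb1 cross had 336 and 240.1 CPM and its blastocysts 430.3, 293 and 347 CPM, which overlapped, and the log2 difference of 0.31 had adjusted p = 0.896. WT blastocysts had 343, 337 and 270.4 CPM, within the range of the other blastocysts. The Alyref KO morulae had 185 and 228 CPM and the morulae labelled Gabpb1 KO 268, 249.8 and 297 CPM, within the range of their non-KO morulae. The call in the Alyref cross was lost without the first or second non-KO morula (adjusted p = 0.116 and 0.141) or without the second or the third blastocyst (0.164 and 0.068). With libraries scaled to the ERCC spike-in it was 0.53 (adjusted p = 0.760).

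Slc2a1 encodes GLUT1, the widely expressed transporter, and lies at chr4:119108711-119137983 on the plus strand. Its level in non-KO morulae of the Alyref cross was 20.9, 1.27 and 44.8 CPM, and the second of these was the lowest of the 19 embryos, with 15 reads. Blastocysts of that cross had 16.7, 43.1 and 28.9 CPM, those of the Gabpb1 cross 39.2, 29.1 and 35.4 CPM, and WT blastocysts 25.6, 46.0 and 34.2 CPM. These 9 blastocysts formed one range. The non-KO morulae of the Gabpb1 cross, at 40.7 and 79.8 CPM, lay above all 3 morulae labelled Gabpb1 KO, at 28.4, 13.8 and 19.2 CPM. That log2 difference of -1.56 (SE 0.77) did not pass (adjusted p = 0.292). Alyref KO morulae had 14.7 and 17.3 CPM, between the values of their non-KO morulae. A transcript on the opposite strand, Gm12868, shares 105 exon bases with Slc2a1, and without the strand setting its reads cannot be told apart there.

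Of the 9 tested genes, the hexokinases had the widest stage differences in the Alyref cross. Hk1, at chr10:62268855-62379908 on the minus strand, encodes the hexokinase of most adult tissues. Hk2, at chr6:82725025-82774454 on the minus strand, encodes the form known from muscle and from rapidly growing cells. Hk1 was at 19.8, 69.0 and 18.5 CPM in the non-KO morulae of the Alyref cross and at 5.06, 5.09 and 4.55 CPM in its blastocysts. All 3 blastocysts lay below all 3 morulae, and Hk1 fell by 2.86 (SE 0.65, adjusted p = 0.0145). Hk2 was at 22.9, 9.03 and 66.6 CPM in the same morulae and at 219.6, 215 and 217 CPM in the blastocysts. Every blastocyst lay above every morula, and Hk2 rose by 2.72 (SE 0.77, adjusted p = 0.0327). The share of all genes without overlap between these stages was not counted. Antisense Hk1os shares 157 exon bases with Hk1 and had 136 reads in all, beside 3716 of Hk1.

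These calls rested on few embryos. The Hk1 call was lost without the second non-KO morula (log2 -1.93, adjusted p = 0.0891) and without the first or second blastocyst (0.0633 and 0.0639). The Hk2 call was lost without any one of the 3 blastocysts or of the first 2 morulae, with adjusted p from 0.0681 to 0.122, and the log2 difference was 3.76 (adjusted p = 0.00681) without the third morula. With ERCC scaling Hk1 still fell (log2 -2.76, adjusted p = 0.0247), and Hk2 did not pass (2.08, adjusted p = 0.356). Trophectoderm markers moved with the same embryos: their summed CPM was 691, 586 and 2469 in the 3 non-KO morulae and 9043, 8127 and 5615 in the 3 blastocysts. All 12 markers were higher in the blastocysts, 3 of them called. Markers of the inner cell mass and epiblast summed to 877 to 1176 CPM in these morulae and to 563 to 674 CPM in the blastocysts, with 9 of 10 lower and 3 called (Nanog, Klf2 and Pou5f1). Of 3 tested oocyte markers Padi6 and Zp3 were called lower, although the 10 oocyte markers summed to 70.04 to 79.1 CPM in morulae and 89.2 to 149 CPM in blastocysts, most of it Ooep. The part of these markers in the stage values of Hk1, Hk2 and Slc2a3 was not tested.

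Both genes overlapped between the stages of the Gabpb1 cross. Hk1 was at 10.1 and 4.72 CPM in non-KO morulae and at 3.21, 6.99 and 9.05 CPM in blastocysts, a log2 difference of -0.21 (adjusted p = 0.983). Hk2 was at 161 and 49.0 CPM in those morulae and at 175, 161 and 84.0 CPM in the blastocysts, a log2 difference of 0.42 (adjusted p = 0.965). WT blastocysts had 7.44, 2.88 and 2.69 CPM of Hk1 and 263, 236 and 146 CPM of Hk2. Each WT blastocyst thus had less Hk1 and more Hk2 than each non-KO morula of the Alyref cross. Morulae of WT parents were not analysed here. The test of the difference between the crosses' stage differences gave 2.65 (SE 0.95, edgeR adjusted p = 0.268) for Hk1 and -2.31 (SE 1.08, adjusted p = 0.361) for Hk2. The crosses were therefore not shown to differ.

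The ratio of Hk2 to Hk1 within an embryo does not depend on how libraries are scaled. In length-scaled counts, Hk2 stood at 61.8, 60.0 and 67.5 times Hk1 in the blastocysts of the Alyref cross. The log2 ratio was 0.72, -2.41 and 2.36 in non-KO morulae of that cross, so Hk1 exceeded Hk2 in the second of them. It was 4.50 and 3.88 in non-KO morulae and 6.26, 5.03 and 3.72 in blastocysts of the Gabpb1 cross. WT blastocysts had 5.65, 6.86 and 6.26. Averaged over both crosses, the log2 ratio was 3.29 higher in non-KO blastocysts than in non-KO morulae (5.76 in the Alyref and 0.81 in the Gabpb1 cross). An exact two-sided permutation test of stage within cross gave p = 0.025, and 0.1 after Benjamini-Hochberg adjustment over 4 ratios, with 0.005 the smallest possible p.

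Alyref KO morulae had Hk1 at 29.4 and 15.3 CPM and Hk2 at 32.5 and 40.1 CPM, both within the range of their non-KO morulae for Hk2 and overlapping it for Hk1. In the morulae labelled Gabpb1 KO, Hk1 was at 8.78, 32.5 and 30.7 CPM and Hk2 at 114, 11.8 and 22.7 CPM. The first of these 3 lay within the range of the non-KO morulae of its cross in both genes, and the other two had more Hk1 and less Hk2 than either of them. Their summed trophectoderm markers were at 3219.95, 299 and 1116 CPM, also highest in the first, and the part of these markers was not tested. The log2 ratio of Hk2 to Hk1 was 4.20, -0.95 and 0.08 in these 3 morulae, beside 0.66 and 1.91 in Alyref KO morulae. The ratio differed by -3.08 between morulae labelled Gabpb1 KO and their non-KO morulae (exact permutation p = 0.3, adjusted p = 0.6) and by 1.06 in the Alyref cross (p = 0.9, adjusted p = 1). With 10 splits of 5 morulae, the smallest p these tests can give is 0.1.

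**Figure D2:**
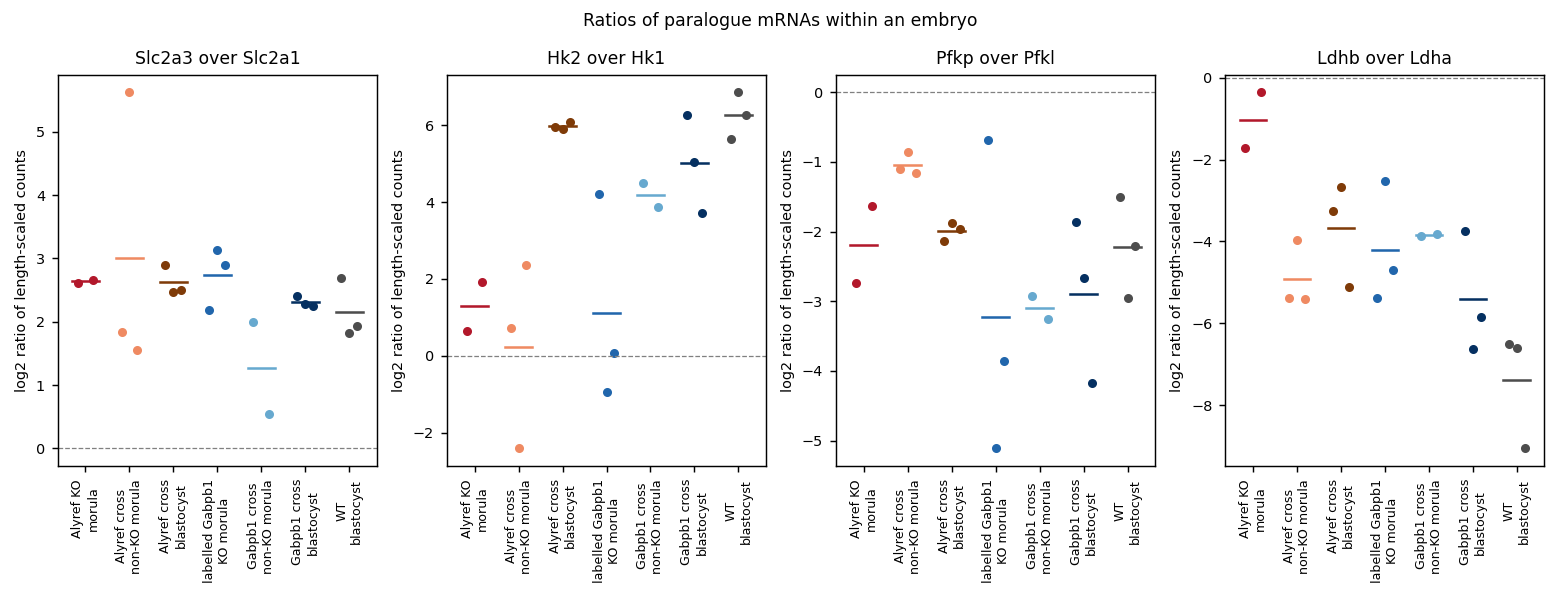
Log2 ratio of length-scaled counts of 4 gene pairs in each embryo, 1 point per embryo and a bar at the group mean, for 7 groups; 0 (dashed) means equal levels. The ratio of Hk2 to Hk1 lies between 5.91 and 6.08 in blastocysts of the Alyref cross and between -2.41 and 2.36 in its non-KO morulae.

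Phosphofructokinase genes were low. Pfkl, which encodes the liver-type subunit and lies at chr10:77986947-78010083 on the minus strand, was at 3.26, 10.4 and 5.76 CPM in non-KO morulae of the Alyref cross. Its blastocysts had 14.6, 14.5 and 16.1 CPM, above every one of those morulae, but the log2 difference of 1.23 did not pass (SE 0.65, adjusted p = 0.208). How many of all genes separated in this way was not counted. The Gabpb1 cross had 24.3 and 17.2 CPM in non-KO morulae and, in blastocysts, 18.3, 10.2 and 51.9 CPM, an overlap. Morulae labelled Gabpb1 KO had 6.46, 19.9 and 24.4 CPM and Alyref KO morulae 14.3 and 4.54 CPM, which overlapped the non-KO values. Pfkp, which encodes the platelet-type subunit (chr13:6579768-6648777, minus strand), ranged from 1.11 to 18.2 CPM. It reached 1 FPKM in fewer than 2 embryos and was not tested, and 748 of its exon bases also belong to Pitrm1 on the other strand. The ratio of Pfkp to Pfkl was below 1 in all 19 embryos, with log2 values from -5.11 to -0.68, and its stage difference was -0.38 (exact permutation p = 0.43, adjusted p = 0.86). In Alyref KO morulae the log2 ratio was -2.74 and -1.63, below the -1.16 to -0.85 of their non-KO morulae. The difference of -1.15 had the smallest p that 10 splits allow (exact permutation p = 0.1, adjusted p = 0.267). Morulae labelled Gabpb1 KO differed by -0.13 from their non-KO morulae and overlapped them.

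Aldoa, the aldolase gene at chr7:126795234-126800751 on the minus strand, ranged from 350.2 to 1068 CPM. Its spread within groups was near that of the median tested gene. It was at 403, 655 and 835 CPM in non-KO morulae of the Alyref cross and at 1068, 861 and 843 CPM in its blastocysts, with no overlap. The log2 difference was 0.55 (SE 0.27, adjusted p = 0.171). The share of all genes without overlap between these stages was not counted, and 31.1% had an unadjusted p under 0.05 in edgeR. Morulae labelled Gabpb1 KO had 525, 350.2 and 598 CPM, below their non-KO morulae at 883 and 615 CPM, and the log2 difference of -0.61 did not pass (SE 0.29, adjusted p = 0.276). The other groups had 509 to 977 CPM. The second Aldoa row (chr7:126800790-126809108) had 0 to 6 reads per embryo.

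Pkm, the pyruvate kinase gene at chr9:59656368-59679375 on the plus strand, had its highest group mean in the non-KO morulae of the Gabpb1 cross, at 335 and 277 CPM. The morulae labelled Gabpb1 KO had 101, 142 and 207 CPM, all lower, with a log2 difference of -1.03 (SE 0.45, adjusted p = 0.228). The non-KO morulae of the Alyref cross had 105, 90.1 and 185 CPM, also all lower, and the difference of 1.27 between the crosses' non-KO morulae had adjusted p = 0.123. Blastocysts had 153 to 281 CPM in both crosses and 81.6, 191 and 195 CPM after WT parents. Alyref KO morulae had 144 and 52.5 CPM, overlapping their non-KO morulae. A pseudogene, Gm6560, matches Pkm at 98.4% over 1593 bases and held 14.4% as many reads, so a part of the Pkm count is uncertain. Gm49759, an unclassified transcript of the same strand, shares 767 exon bases with Pkm.

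Ldha, at chr7:46841475-46855627 on the plus strand, encodes the lactate dehydrogenase subunit known from glycolytic tissue. It was at 11.8, 82.0 and 26.2 CPM in non-KO morulae of the Alyref cross, at 34.9, 9.56 and 24.0 CPM in its blastocysts and at 25.1 and 2.93 CPM in its KO morulae. Morulae labelled Gabpb1 KO had 26.3, 73.1 and 137 CPM, their non-KO morulae 106 and 80.8 CPM and the blastocysts of that cross 56.8, 61.6 and 191 CPM. WT blastocysts had 32.0, 138 and 189 CPM. Ldha values overlapped between the groups of every pair compared. The pooled SD of log2(CPM + 1) within groups was 1.20 for Ldha, larger than for 98.7% of tested genes, where the median gene had 0.37. It was 1.02 for Slc2a1, 0.99 for Hk2, 0.82 for Pfkl, 0.77 for Ldhb, 0.75 for Hk1 and 0.55 for Pkm. Slc2a3 at 0.35 and Aldoa at 0.34 were near the median gene. The added 1 narrows the spread of genes near 1 CPM, such as Ldhb, so this order holds for that scale only. Among the comparisons fitted, the largest Ldha difference was -2.39 for Alyref cross against WT blastocysts (edgeR adjusted p = 1), where the first WT blastocyst overlapped. Ldha has 3 near-identical pseudogenes in the table, which held 4.66% as many reads.

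Ldhb, the lactate dehydrogenase subunit known from heart (chr6:142490249-142507957, minus strand), had 2 to 65 reads per embryo and 0.109 to 6.02 CPM. Its log2 ratio to Ldha was below 0 in all 19 embryos. The ratio was nearest to 0 in Alyref KO morulae, at -0.36 and -1.72, beside -5.41 to -3.97 in their non-KO morulae. The groups did not overlap, and the difference of 3.88 had the smallest p that 10 splits allow (exact permutation p = 0.1, adjusted p = 0.267). The stage difference of this ratio was -0.16 (exact permutation p = 0.86, adjusted p = 0.86), with opposite signs in the crosses (1.24 and -1.56). For Slc2a3 over Slc2a1 the stage difference was 0.33 (exact permutation p = 0.665, adjusted p = 0.86). It was -0.37 between Alyref KO and non-KO morulae (exact permutation p = 1, adjusted p = 1). The non-KO morulae of the Alyref cross included 1 with a log2 ratio of 5.62, the second, in which Slc2a1 was nearly absent. Morulae labelled Gabpb1 KO lay above their non-KO morulae in this ratio, by 1.47 (exact permutation p = 0.1, adjusted p = 0.267).

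Between Alyref KO and non-KO morulae, 0 of the 9 tested genes passed, where 0.228% of all 18410 tested genes did in edgeR (0.0923% higher and 0.136% lower). None of the 9 had an unadjusted p under 0.05 in edgeR either, beside 2225 of all genes, and DESeq2 also called 0 of the 9. The KO and non-KO values overlapped for each of the 9. The log2 difference was below 0 for 5 and above 0 for 4, with a median of -0.13 beside -0.04 over all genes tested. The 3 with the largest differences were Ldha, Ldhb and Hk1. Ldha differed by -1.54 (SE 1.04, adjusted p = 0.607), Ldhb by 1.32 (SE 1.23, adjusted p = 0.735) and Hk1 by -0.68 (SE 0.68, adjusted p = 0.758). The sign for Hk1 turned to 0.24 without the second non-KO morula.

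Between the morulae labelled Gabpb1 KO and their non-KO morulae, 0 of the 9 passed as well, where 1.65% of all genes did (0.348% higher and 1.3% lower). Hk1 and Pkm had an unadjusted p under 0.05, beside 3476 of all genes, and DESeq2 called 0 of the 9. The difference was below 0 for 8 of the 9, with a median of -0.29 beside 0.06 over all genes. With ERCC scaling it was also below 0 for 8 of the 9. Hk1 was the exception, at 1.69 (SE 0.72, adjusted p = 0.221, 95% interval 0.17 to 3.22), and its values overlapped. Slc2a1 at -1.56 and Hk2 at -1.09 (SE 0.80, adjusted p = 0.482) had the next largest differences. Hk2 stood at 0.01 without the first non-KO morula. Slc2a1, Pkm and Aldoa, the last 2 singled out after their values were seen, were below all non-KO values in all 3 labelled morulae. None of them passed, and the share of all genes separated in this way was not counted. In this comparison 11 of 12 trophectoderm markers were lower and none was called, and their part in these values was not tested. The difference between the 2 KO comparisons passed for 0 of the 9, where 0.907% of all genes did, and Hk1, with the largest value at 2.37, had an edgeR adjusted p of 0.242.

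Between stages in the Alyref cross, 3 of the 9 passed, 2 higher and 1 lower, where 13% of all genes did (5.62% higher and 7.43% lower). The median difference of the 9 was 0.45, beside -0.04 over all genes. It was above 0 for 7 and below 0 for 2, and with ERCC scaling for 5 and 4. The median with ERCC scaling was 0.19, beside -0.34 over all genes. Between stages of the Gabpb1 cross, with 0 of the 9 called, none had an unadjusted p under 0.05 there in edgeR, beside 1237 of all genes, and DESeq2 called 0 of the 9 and 51 of all. The difference was above 0 for 5 of the 9, but with ERCC scaling it was below 0 for all 9. The median of the 9 with ERCC scaling was -0.92, beside -0.86 over all genes. With both crosses weighted equally 0 of the 9 passed, where 4.36% of all genes did (1.7% higher and 2.66% lower). At an unadjusted p under 0.05 were 2 higher and 1 lower, and DESeq2 called 3. The largest 3 were Hk2 at 1.57 (SE 0.57, adjusted p = 0.105), Hk1 at -1.54 (SE 0.46, adjusted p = 0.0627) and Pfkl at 0.80 (SE 0.48, adjusted p = 0.327). The stage differences of the 2 crosses differed for 0 of the 9, where 0.00543% of all genes passed.

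**Figure D3:**
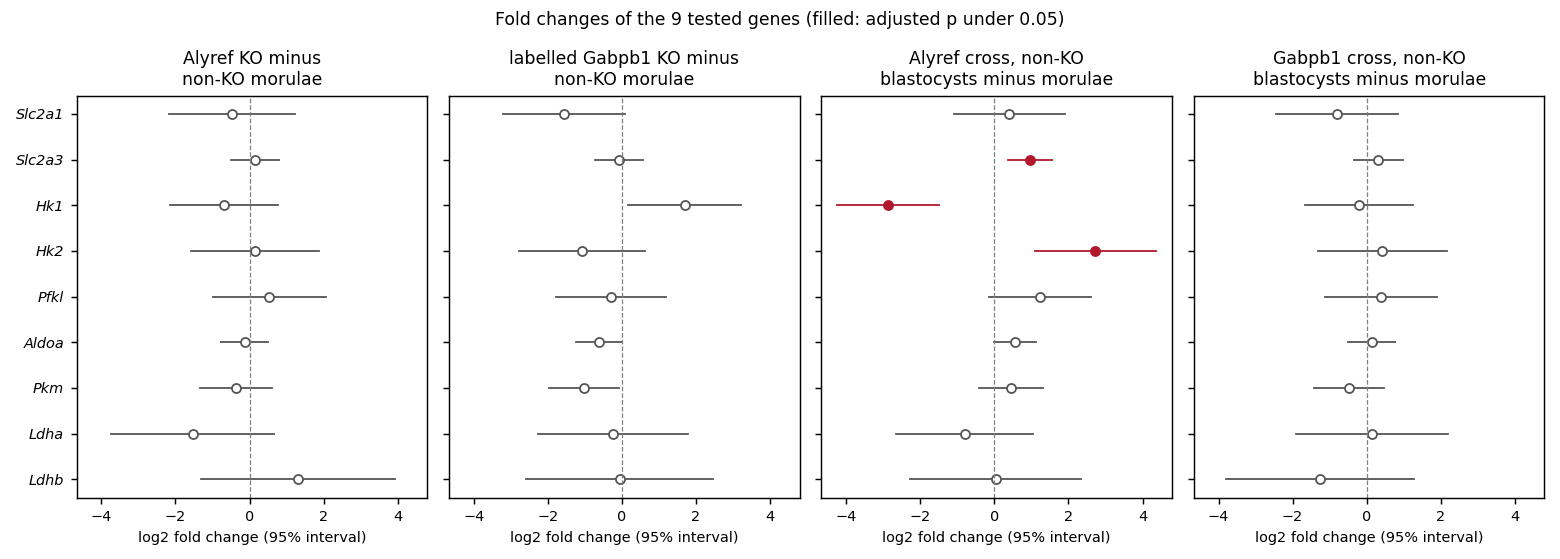
Log2 fold changes of the 9 tested genes with 95% intervals in the KO and stage comparisons; a filled point passed an adjusted p of 0.05. Filled points are Hk1 at -2.86, Hk2 at 2.72 and Slc2a3 at 0.96, all in the stage comparison of the Alyref cross.

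The non-KO morulae of the 2 crosses differed in none of the 9 by the test, where 1.86% of all genes passed (1.18% higher and 0.674% lower). In edgeR 2 higher and 1 lower had an unadjusted p under 0.05, beside 4129 of all genes, and DESeq2 called 1, Hk1. The difference, Gabpb1 cross minus Alyref cross, was above 0 for 8 of the 9 with a median of 1.27, beside -0.03 over all genes. Pfkl at 1.69 (adjusted p = 0.175), Pkm at 1.27 and Ldhb at 1.74 (adjusted p = 0.408) were higher in both morulae of the Gabpb1 cross than in all 3 of the Alyref cross, and Hk1 at -2.27 (adjusted p = 0.102) was lower. The share of all genes without overlap between these few morulae was not counted. Without the third non-KO morula of the Alyref cross, 4 passed: Hk2 (2.71), Slc2a3 (1.00), Pkm (1.65) and Hk1 (-2.58). Without that embryo 2435 of all 18410 genes passed, beside 342 with it. On the first principal component of all genes, which held 43.3% of the variance, the morulae of the Gabpb1 cross stood at 19.5 and 4.97 and the third of the Alyref cross at -3.24. The other non-KO morulae of the Alyref cross were at -66.5 and -110.2, and blastocysts at 14.9 to 65.0. Blastocysts of neither cross differed from WT blastocysts in any of the 9, where 0% of all genes passed in each. In edgeR, 541 and 1123 of all genes had an unadjusted p under 0.05, with Ldha the only one of the 9 (Alyref cross), and DESeq2 called 15 and 39 of all genes and 0 of the 9. The 2 crosses share these WT embryos.

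Of 17 other glycolytic enzyme genes 12 were tested, and in the Alyref cross 4 rose from morula to blastocyst and 1 fell, where 5.62% of all genes were called higher and 7.43% lower. Their median difference was 0.78. Pgk1, phosphoglycerate kinase, was at 14.4 ± 7.65 CPM (SD, n = 3) in non-KO morulae and 71.3 ± 16.2 CPM (SD, n = 3) in blastocysts and rose by 2.31 (SE 0.43, adjusted p = 0.0078). Gapdh rose by 2.22 (SE 0.44, adjusted p = 0.00938), from 107 to 496 CPM on average. Tpi1, triosephosphate isomerase, rose by 2.82 (SE 0.70, adjusted p = 0.0205) and Gpi1, glucose phosphate isomerase, by 1.28 (SE 0.36, adjusted p = 0.0333). Pgam1, phosphoglycerate mutase, fell by 1.08 (SE 0.30, adjusted p = 0.0313), from 248 to 118 CPM. Tpi1, Gapdh and Pgk1 catalyse consecutive steps after aldolase. Pgk1 passed with each of the 6 embryos left out in turn, Gapdh in all but the fit without the second morula (adjusted p = 0.0503), and Tpi1 in 3 (not without the second morula or the first or second blastocyst, adjusted p = 0.0853, 0.0680 and 0.0634). Gpi1 and Pgam1 passed in 1 of the 6, without the third morula, and otherwise reached adjusted p of up to 0.118 and 0.122. None of the 5 passed with ERCC scaling. Of these 12 genes 0 passed in the Gabpb1 cross (1 at an unadjusted p under 0.05), with a median of 0.09. Its non-KO morulae had 499 ± 122 CPM (SD, n = 2) of Gapdh and 62.4 ± 16.3 CPM (SD, n = 2) of Pgk1. These levels were higher than in non-KO morulae of the Alyref cross by 2.23 and 2.11 (edgeR adjusted p = 0.0361 for both). Both calls were lost without any one of these 5 morulae except the third of the Alyref cross, with adjusted p up to 0.173. In the KO comparisons 0 of the 12 passed, with 1 and 4 at an unadjusted p under 0.05.

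**Figure D4:**
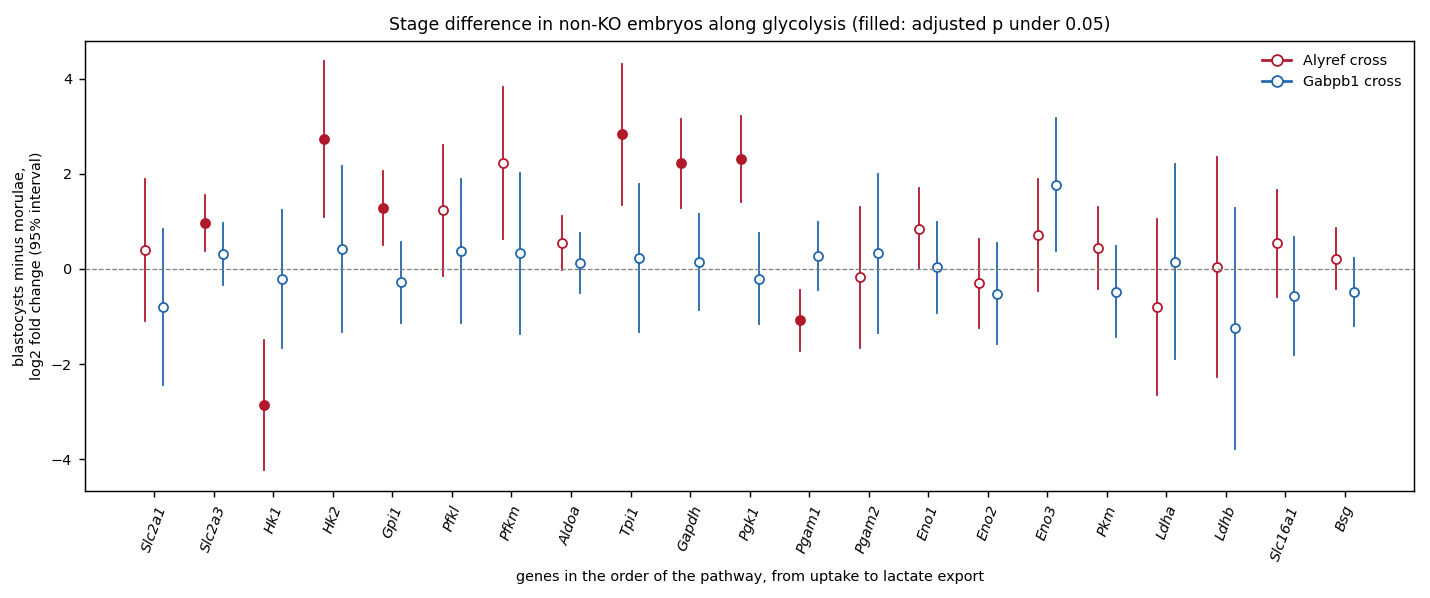
Log2 fold change from non-KO morulae to non-KO blastocysts, with 95% intervals, for genes in pathway order from uptake to lactate export, in the Alyref cross and the Gabpb1 cross; a filled point passed an adjusted p of 0.05. The filled points are all in the Alyref cross, among them Hk2 at 2.72, Tpi1 at 2.82, Gapdh at 2.22 and Pgk1 at 2.31 above 0 and Hk1 at -2.86 and Pgam1 at -1.08 below it.

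Among 13 other transporter and hexokinase genes, 4 were tested and 0 passed in any of the KO comparisons or the stage comparisons within a cross, with 1 at an unadjusted p under 0.05 (Gabpb1 cross, stage). Slc2a8, an intracellular glucose transporter, had the highest mean at 17.8 FPKM, below Slc2a3 at 39.8 FPKM. Slc5a2 followed at 0.98 FPKM and Slc2a12 at 0.93 FPKM. Of the hexokinases outside the 10 genes, Hkdc1 alone was tested, at 0.59 FPKM on average.

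Ldha had the widest range of group means, 3.24 on the log2(CPM + 1) scale, and genes were ranked by their distance from it over the 19 embryos after centring each gene on its mean. The distance is the root mean square difference on that scale. The 5 nearest of 18409 were Hsf2bp (0.853), the Ldha pseudogene AC123061.1 (0.895), Pfkl (0.904), Nefl (0.904) and the Ldha pseudogene AC154572.2 (0.925). The pseudogenes match Ldha at 95.6% over 1000 bases and 95.9% over 997 bases and can take its reads. Pfkl was thus the nearest of the other tested glycolysis genes, at rank 3. Of the 9 tested genes, Pkm came next at rank 36 with a distance of 1.15. Ranks of other glycolytic enzyme genes beyond the 5 nearest were not listed. Both Ldha and Pfkl were low in the second Alyref KO morula and high in the third blastocysts of the Gabpb1 cross and of WT parents. The ranking describes these embryos and carries no test.

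**Figure D5:**
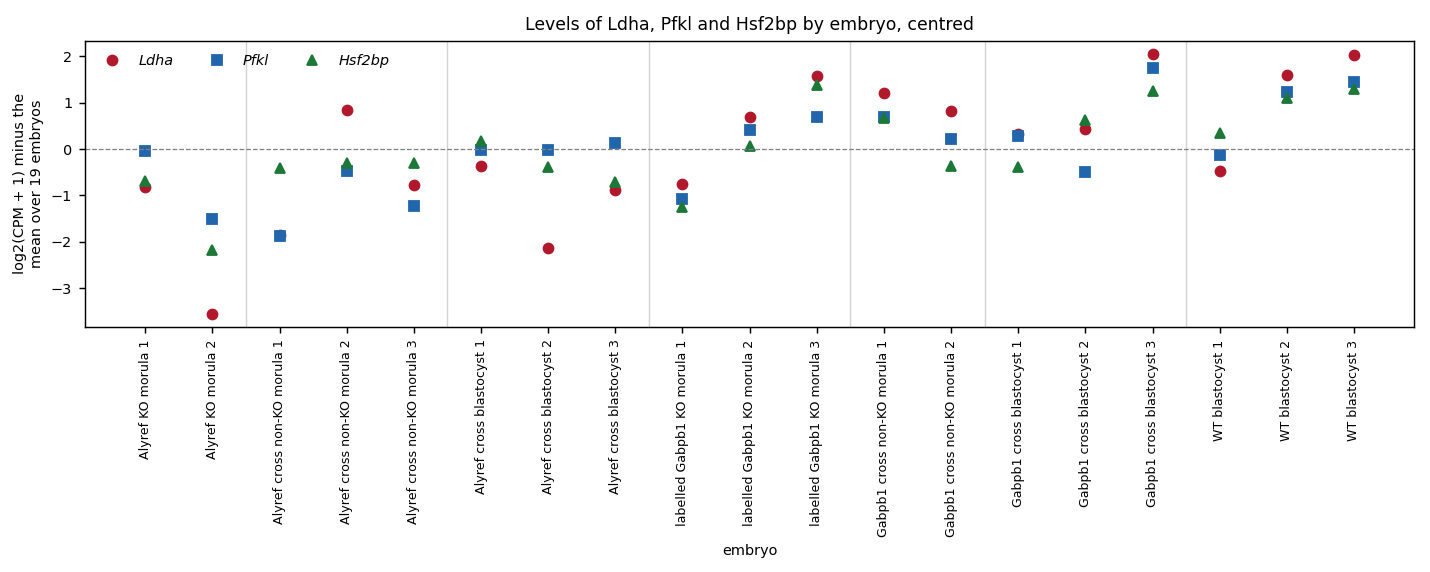
Levels of Ldha, Pfkl and Hsf2bp in each of 19 embryos as log2(CPM + 1) minus the gene's mean over all embryos, with embryos in group order. Ldha runs from -3.55 in the second Alyref KO morula to 2.06 in the third blastocyst of the Gabpb1 cross, where Pfkl is at -1.51 and 1.75.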

How the data were processed

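The 10 genes and all gene lists were chosen with earlier results of these data known. The authors deposited 1 table of raw, whole-number counts per gene, although it is named after FPKM. Per the submitters' processing notes, Trimmomatic, Trim Galore, cutadapt, STAR and featureCounts were used with build mm10; their versions and the strand setting are not given in the sources used here. Per the labels, 1 embryo without its zona pellucida made 1 library, with ERCC spike-in RNA added after lysis, 16 cycles of PCR, Nextera XT preparation and paired reads of 50 and 25 bases. Reads carry no molecular identifiers, so counts are not independent molecules.

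CPM were computed with TMM-scaled library sizes over gene rows, without the 92 ERCC rows, and FPKM with the deposited exon length. Genes with 1 FPKM or more in at least 2 embryos were tested, 18410 of 39262 with any count. edgeR 4.0.16 (R 4.3.3) fitted 1 mean for each of 7 groups to 19 embryos. Its quasi-likelihood F test gave the p-values, adjusted by Benjamini-Hochberg over all tested genes; a call means an adjusted p under 0.05. Every adjusted p for a gene is from this test unless DESeq2 (1.42.0) is named. Each SE is the size of the log2 difference divided by the square root of F. Ratios of 2 genes in an embryo used counts plus 0.5, divided by length, and exact two-sided permutation tests. The edgeR step was run on simulated, independent counts as a check of the code only, and its error rate in these embryos was not tested.

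All 10 genes are named. Fold changes with their errors are given for called genes and for the 3 largest in each KO comparison and in the stage comparison over both crosses; of other lists, called genes or the 3 with the highest FPKM are named. Genes like Ldha are the 5 with the smallest root mean square distance. The lists are other glucose transporters and hexokinases, other glycolytic enzymes, fructose 2,6-bisphosphate enzymes, lactate and pyruvate carriers, the pentose phosphate and hexosamine pathways, regulators of glycolytic genes, and markers of trophectoderm, inner cell mass and epiblast, primitive endoderm, oocyte and cumulus cells. Gene positions match GENCODE M21 for 50604 identifiers. No 2 embryos had identical counts. Replicate numbers in the titles were taken to name embryos and not to pair them. Of 17 pairs with one number, 4 correlated above 0.1 (range -0.156 to 0.168). Values were centred within groups of 2 or 3 embryos, which ties these correlations together, so they cannot decide on pairing.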

Additional observations from a re-analysis of the deposited data

Results flagged for a closer look

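One result met the criterion that 2 groups differ under the same comparison, by a test of the difference itself. Mlx encodes the partner with which the glucose-sensing factors ChREBP and MondoA bind DNA. It was at 13.3, 13.0 and 9.08 CPM in the morulae labelled Gabpb1 KO and at 41.8 and 51.9 CPM in their non-KO morulae, and it was at 34.6 to 60.7 CPM in the other embryos. All 3 labelled morulae lay below every other embryo, and Mlx fell by 1.99 (SE 0.26, edgeR adjusted p = 0.00193). In the Alyref cross Mlx was at 40.4 and 40.1 CPM in KO morulae and at 47.7, 60.7 and 34.6 CPM in non-KO morulae, a difference of -0.24 (adjusted p = 0.777). The difference between the 2 KO comparisons was -1.75 (SE 0.37, edgeR adjusted p = 0.0383).

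With 1 embryo left out, the difference between crosses ran from -2.02 to -1.56 and passed in 4 of 10 fits. It was lost without the first or second Alyref KO morula (adjusted p = 0.124 and 0.105), the first non-KO morula of that cross (0.0750), the third morula labelled Gabpb1 KO (0.0663) or either non-KO morula of the Gabpb1 cross (the first 0.0656, the second 0.163). It did not pass with ERCC scaling (adjusted p = 0.653), with the 4 compared groups alone (0.298), without a filter (0.0621) or with a replicate block (0.0684). The fall within the Gabpb1 cross passed in all 5 fits without 1 embryo, with adjusted p from 0.00374 to 0.0275, and did not pass with ERCC scaling (0.110) or with the 2 compared groups alone (0.319). Counts over the whole Gabpb1 gene were not lower in these 3 morulae, and such counts cannot examine the deleted part.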

How the results depend on the processing

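The other settings were RLE or ERCC scaling, DESeq2, 2 other filters, the replicate block, the compared groups alone, each embryo left out, and for ratios 5 added counts. The number of the 9 genes called between stages in the Alyref cross was 3, 1 with ERCC scaling (Hk1), 0 with the compared groups alone, and 0 to 4 with 1 embryo left out. Over both crosses it was 0, 1 with ERCC scaling (Hk1), 3 with DESeq2 and 0 to 3 with 1 embryo left out. Between the crosses' non-KO morulae it was 0, 1 with DESeq2 and 0 to 4 with 1 embryo left out. The high counts, 4, 3 and 4, all came without the third non-KO morula of the Alyref cross, where calls over all genes were 4560, 2930 and 2435 in place of 2402, 803 and 342. Of all such counts, 128 stayed within 1.5 times the reported count and 12 did not.

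Of the fold changes under other settings, 318 kept sign and side of the threshold, 145 lost a call, 5 gained one and 2 changed sign. With 1 embryo left out, Hk1 ran from -1.22 to 0.24 between Alyref KO and non-KO morulae (0.24 without the second non-KO morula), and Hk2 from -2.60 to 0.011 between labelled Gabpb1 KO and non-KO morulae (0.011 without the first non-KO morula). Leaving out 1 embryo also turned the sign of some ratios. The stage difference of Slc2a3 over Slc2a1 ran from -0.033 to 0.99 and passed at 0.99 (exact permutation adjusted p = 0.04) without the second Alyref non-KO morula, and that of Ldhb over Ldha ran from -0.58 to 0.19. For Alyref KO, Slc2a3 over Slc2a1 ran from -1.10 to 0.94 and Hk2 over Hk1 from -0.26 to 2.13. For labelled Gabpb1 KO, Ldhb over Ldha ran from -1.19 to 0.24 and Pfkp over Pfkl from -1.40 to 0.82. Causes were not tested.

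With the replicate block, the Alyref stage comparison still called 3 of the 9 (Hk1 adjusted p = 0.0256, Hk2 0.0370, Slc2a3 0.0471). The numbers were not taken to pair embryos. With this block the count over all genes fell from 42 to 8 (Alyref KO) and from 803 to 401 (stage over both crosses). Over all genes, in the order Alyref KO, Gabpb1 KO, stage in the Alyref cross, stage in the Gabpb1 cross, stage over both and cross, edgeR called 42, 303, 2402, 0, 803 and 342. DESeq2 called 490, 1265, 3739, 51, 2311 and 1694, ERCC scaling 0, 26, 352, 0, 1220 and 2, and the compared groups alone 0, 0, 24, 0, 519 and 0. Without a filter, Alyref KO gave 13. With ERCC scaling the median log2 difference of all genes was -0.06, -0.40, -0.34, -0.86, -0.61 and 0.39, in place of -0.04, 0.06, -0.04, 0.02, -0.02 and -0.03. Depth limits Ldhb most, with 2 to 65 reads.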

Other observations

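Pathways that branch from glycolysis were also read in the non-KO embryos. In the Alyref cross 3 of 6 genes of the hexosamine pathway, which makes UDP-GlcNAc from fructose 6-phosphate, fell from morula to blastocyst, and 0 rose, where 7.43% of all genes were called lower and 5.62% higher. Gnpnat1 fell by 2.86 (SE 0.66, edgeR adjusted p = 0.0134), from 356 ± 257 CPM (SD, n = 3) to 49.0 ± 12.1 CPM (SD, n = 3). Gfpt1, the entry enzyme, fell by 1.39 (adjusted p = 0.0314) and Uap1 by 1.42 (adjusted p = 0.0373). With both crosses weighted equally, Gnpnat1 fell by 2.05 (adjusted p = 0.0243) and Gfpt1 by 1.28 (adjusted p = 0.0281). In the Gabpb1 cross 0 of the 6 passed, with 1 at an unadjusted p under 0.05. With 1 embryo left out, Gnpnat1 passed in 3 of 6 fits in the Alyref cross (not without the second morula or the first or second blastocyst, adjusted p = 0.0722, 0.0576 and 0.0674), and Gfpt1 and Uap1 passed only without the third morula, with adjusted p otherwise up to 0.213 and 0.180. Over both crosses Gnpnat1 passed in 5 of 11 fits (adjusted p up to 0.115) and Gfpt1 in 3 (up to 0.0868).

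The single calls that follow stand beside the same shares in the Alyref cross, and over both crosses beside 1.7% of all genes called higher and 2.66% lower. Of 7 tested genes of the pentose phosphate pathway, 1 rose in the Alyref cross: Pgls, 6-phosphogluconolactonase, by 1.30 (adjusted p = 0.0145), and it rose by 0.94 (adjusted p = 0.0318) over both crosses. Of 4 tested genes for fructose 2,6-bisphosphate enzymes, Tigar fell in the Alyref cross by 1.27 (adjusted p = 0.0167), from 369 ± 59.5 CPM (SD, n = 3) to 153 ± 24.3 CPM (SD, n = 3). Of 4 tested lactate and pyruvate carriers, Mpc1, a subunit of the mitochondrial pyruvate carrier, fell by 0.96 (adjusted p = 0.0459). Of 8 regulators, Mlxip, which encodes MondoA, rose by 1.82 (adjusted p = 0.0366) in the Alyref cross, and Mlxipl, which encodes ChREBP, fell by 2.41 (adjusted p = 0.0270) over both crosses. With 1 embryo left out in the Alyref cross, Pgls passed in 3 of 6 fits (adjusted p up to 0.0672), Tigar in 2 (up to 0.0744), and Mlxip and Mpc1 in 1, that without the third morula (otherwise up to 0.144 and 0.226). Over both crosses Pgls passed in 3 of 11 (up to 0.159) and Mlxipl in 5 (up to 0.159). With ERCC scaling Gnpnat1 (0.0170) kept its call in the Alyref cross, and Gfpt1, Uap1, Pgls, Tigar, Mpc1 and Mlxip did not. Of the genes in these 5 lists, 0 passed between Alyref KO and non-KO morulae, and Mlx alone passed between the morulae labelled Gabpb1 KO and their non-KO morulae.

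Summed CPM of primitive endoderm markers ran from 124 to 275 and of oocyte markers from 26.9 to 189 over the 19 embryos. Between stages, 0 of 6 primitive endoderm markers passed in either cross or over both. Of 3 tested oocyte markers, Padi6 (log2 -2.54, adjusted p = 0.0213) and Zp3 (-3.41, adjusted p = 0.0163) fell in the Alyref cross and over both crosses (-1.69, adjusted p = 0.0474, and -3.12, adjusted p = 0.0151), and Ooep, at 46.8 CPM in morulae and 118 CPM in blastocysts of the Alyref cross, did not pass (1.33, adjusted p = 0.0796).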
